A study of Mus musculus with 18 samples.

Results

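The collagen genes were taken as the mouse genes whose symbol in the probe annotation has the form Col, a number, the letter a and a second number, and only probe sets assigned to that single symbol were used. The rule found 42 genes among the 18194 genes measured, on 82 of the 45101 probe sets of the array. Of these genes, 15 had 1 probe set, 16 had 2, 9 had 3 and 2 had 4, and several probe sets of 1 gene were averaged. Col6a6, Col21a1 and Col28a1 were not analysed here.

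RPE/choroid, the retinal pigment epithelium together with the vascular layer beneath it, was profiled in male C57BL6/J mice after 1 intravitreal injection of 1 µL. The treated mice received triamcinolone acetonide (TAA, 25 µg) or dexamethasone (Dex, 10 µg), both synthetic glucocorticoids, and the control mice received the solvent, balanced salt solution (BSS). Tissue was collected at day 30 or at day 7. The 18 Affymetrix arrays, each from a separate animal, thus fell into 6 groups of 3. The labels give the mice as 2 months old in every group, with no genetic alteration.

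All mice were injected on the same day, so the day 30 mice were also older at collection, and age and time since injection cannot be told apart. The doses of the steroids differ, so a difference between TAA and Dex cannot be assigned to the compound or to the dose. Each group was hybridised from the mice with the best RNA, and the methods hold it likely that the sclera, which was taken out during extraction, carried most of the choroid away with it.

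Collagens are proteins of 3 chains wound into a triple helix, and the vertebrate family is divided by the structures that the molecules build. Fibrillar collagens form the tensile fibres of connective tissue, fibril-associated collagens coat those fibres, and type VI collagen forms beaded microfilaments between fibres and cells. Network-forming collagens make sheets, of which type IV collagen is the scaffold of every basement membrane and type VIII collagen is found in specialised basement membranes of the eye and of vessels. In RPE/choroid these structures meet in Bruch's membrane, the layered matrix between the RPE and the choroidal capillaries, and in the stroma of the choroid. Glucocorticoids have long been known to lower type I collagen synthesis in cultured skin fibroblasts.

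By class, the 42 genes held 11 fibrillar collagens (Col1a1, Col1a2, Col2a1, Col3a1, Col5a1, Col5a2, Col5a3, Col11a1, Col11a2, Col24a1 and Col27a1) and 9 fibril-associated collagens (Col9a1, Col9a2, Col9a3, Col12a1, Col14a1, Col16a1, Col19a1, Col20a1 and Col22a1). A further 5 genes encoded chains of beaded filaments (Col6a1 to Col6a5), 6 the chains of the basement membrane network (Col4a1 to Col4a6) and 3 the short chain network collagens (Col8a1, Col8a2 and Col10a1). The remaining genes were the anchoring fibril collagen Col7a1, 4 transmembrane collagens (Col13a1, Col17a1, Col23a1 and Col25a1), the multiplexins Col15a1 and Col18a1, and Col26a1.

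RefSeq promoter windows of GRCm38.p6, each 250 bases before and 50 bases after a start site, were matched to 33 of the 42 genes (36 windows). No window was matched to Col1a1, Col2a1, Col4a3, Col5a2, Col9a3, Col12a1, Col14a1, Col22a1 or Col26a1. Col5a2 and Col14a1, the collagens with an adjusted p under 0.05 below (limma), are thus not covered. The 130 bases before the start site are shown 5′ to 3′ for 4 other genes described below, to let their start regions be compared. They are a fibrillar pair, the network gene with the widest steroid values at day 7, and a beaded filament gene. Capitals mark the motif CCAAT, the letters read by CCAAT-binding factors, in Col1a2 (chr6:4505488-4505617, plus strand), or TATAAA, a form of the TATA box, in Col3a1 (chr1:45311408-45311537, plus strand) and Col10a1 (chr10:34389851-34389980, plus strand). The stretch of Col6a3 (chr1:90843972-90844101, minus strand) held none of the motifs searched.
Col1a2: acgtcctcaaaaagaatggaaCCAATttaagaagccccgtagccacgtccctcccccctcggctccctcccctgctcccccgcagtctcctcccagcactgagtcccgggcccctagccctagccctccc
Col3a1: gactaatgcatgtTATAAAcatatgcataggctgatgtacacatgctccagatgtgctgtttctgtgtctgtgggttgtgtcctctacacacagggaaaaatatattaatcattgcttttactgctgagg
Col10a1: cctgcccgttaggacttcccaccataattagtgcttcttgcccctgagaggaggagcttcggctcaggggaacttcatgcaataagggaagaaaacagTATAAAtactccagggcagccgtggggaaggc
Col6a3: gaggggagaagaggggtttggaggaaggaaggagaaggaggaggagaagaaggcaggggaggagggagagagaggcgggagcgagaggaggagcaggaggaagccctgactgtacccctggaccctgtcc

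The CCAAT of Col1a2 began 109 bases before the start site, whereas the TATAAA began 32 bases before the start site in Col10a1 and 117 bases before it in Col3a1. Over whole windows, on either strand, TATAAA was found in 5 of the 36 collagen windows (13.9%, against 13.6% of the 32851 windows of all genes) and CCAAT in 13 (36.1%, against 37.4%). GGGCGG, the letters of a GC box, was found in 22 collagen windows (61.1%), against 35.7% of all windows. The palindromic glucocorticoid response element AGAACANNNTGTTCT was found in 0 of the 36 collagen windows and in 3 of all windows (0.00913%), and AGAACA alone, its first arm, in 2 collagen windows (Col9a1 and Col20a1, 5.56%, against 19.0% of all windows). These counts describe letters in a short window only.

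Some chains that join in 1 collagen molecule are encoded side by side. The start sites of Col4a1 and Col4a2 lay 21 bases apart on opposite strands of chromosome 8, and their windows shared 78 bases. Those of Col4a5 and Col4a6 lay 1343 bases apart on opposite strands of the X chromosome. Col6a1 and Col6a2 were read from the same strand of chromosome 10, with start sites 102414 to 102640 bases apart.

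The deposited values are log2 values from which the median of the 18 arrays had been subtracted for every probe set. They hold no level, so which collagen was most abundant, and whether RPE markers such as Rpe65 were well expressed, cannot be read from them. Array medians lay between -0.0443 and 0.0202. Markers of tissues other than RPE/choroid varied widely between arrays of a group. The mean of 9 surface epithelium genes ran between -2.12 and 2.97 at day 30 and between -2.26 and 1.79 at day 7. That of 12 rod photoreceptor genes ran between -1.51 and 3.69 at day 30 and between -1.56 and 2.17 at day 7. Of the 18 arrays, replicate 1 of BSS day 30 stood apart for collagens, with the lowest mean of the fibrillar class (-0.48) and of the beaded filament class (-0.54), and the lowest mean of 10 endothelial genes (-0.74). Its part in the BSS comparisons is given with them. In a bulk tissue, fewer cells of a type and less RNA per cell cannot be told apart.

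Whether collagen expression moved over the weeks after the injection was asked first, by setting the 9 arrays of day 30 against the 9 arrays of day 7 with the treatments weighted equally. Col5a2, a chain of the type V collagen that starts type I fibrils, and Col14a1, a fibril-associated collagen that binds at the fibril surface, fell in the day 30 arrays. They were the collagens with an adjusted p under 0.05 (limma, Benjamini-Hochberg over 18194 genes), 2 of 42, against 0.429% of all genes. A further 11 collagens had an unadjusted p of 0.05 or less, which made 13 of 42 (31%), against 15.3% of all genes, and 12 of the 13 lay lower at day 30 (28.6% of the collagens, against 9.17% of all genes in that direction). Below 0 were 29 of 42 (69%), against 57.3% of all genes, and the median log2 fold change was -0.099 for the collagens and -0.016 for all genes.

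Col5a2 had values of -0.89, -0.20 and -0.03 as the lowest, median and highest of the day 30 arrays, against -0.27, 0.24 and 0.78 in the day 7 arrays. All 9 day 30 arrays were below 0 and 8 of the 9 day 7 arrays were above 0, and the days overlapped only through replicate 1 of TAA day 7. The log2 fold change of Col5a2 was -0.59 (SE 0.11, 95% interval -0.83 to -0.36, adjusted p = 0.0315), and its probe sets gave -0.59 and -0.60. By group, Col5a2 read -0.46, -0.32 and -0.20 in TAA, -0.03, -0.14 and -0.077 in Dex and -0.89, -0.16 and -0.43 in BSS at day 30. At day 7 it read -0.27, 0.48 and 0.24 in TAA, 0.64, 0.78 and 0.24 in Dex and 0.28, 0.15 and 0.12 in BSS. The Dex arrays of day 30 were thus the highest group of that day, and the Dex arrays of day 7 held its highest values of all.

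Col14a1 had values of -0.61, -0.14 and -0.038 as the lowest, median and highest of the day 30 arrays, against -0.17, 0.26 and 0.62 in the day 7 arrays. Again every day 30 array was below 0, and replicate 1 of TAA day 7 was the only day 7 array below 0. The log2 fold change of Col14a1 was -0.51 (SE 0.09, 95% interval -0.70 to -0.31, adjusted p = 0.023), with -0.65, -0.41 and -0.46 at its 3 probe sets. By group, Col14a1 read -0.41, -0.14 and -0.038 in TAA, -0.17, -0.14 and -0.085 in Dex and -0.61, -0.12 and -0.58 in BSS at day 30, and -0.17, 0.23 and 0.19 in TAA, 0.62, 0.26 and 0.27 in Dex and 0.088, 0.51 and 0.28 in BSS at day 7. The spread within BSS day 30 was the widest of the day 30 groups.

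**Figure D1:**
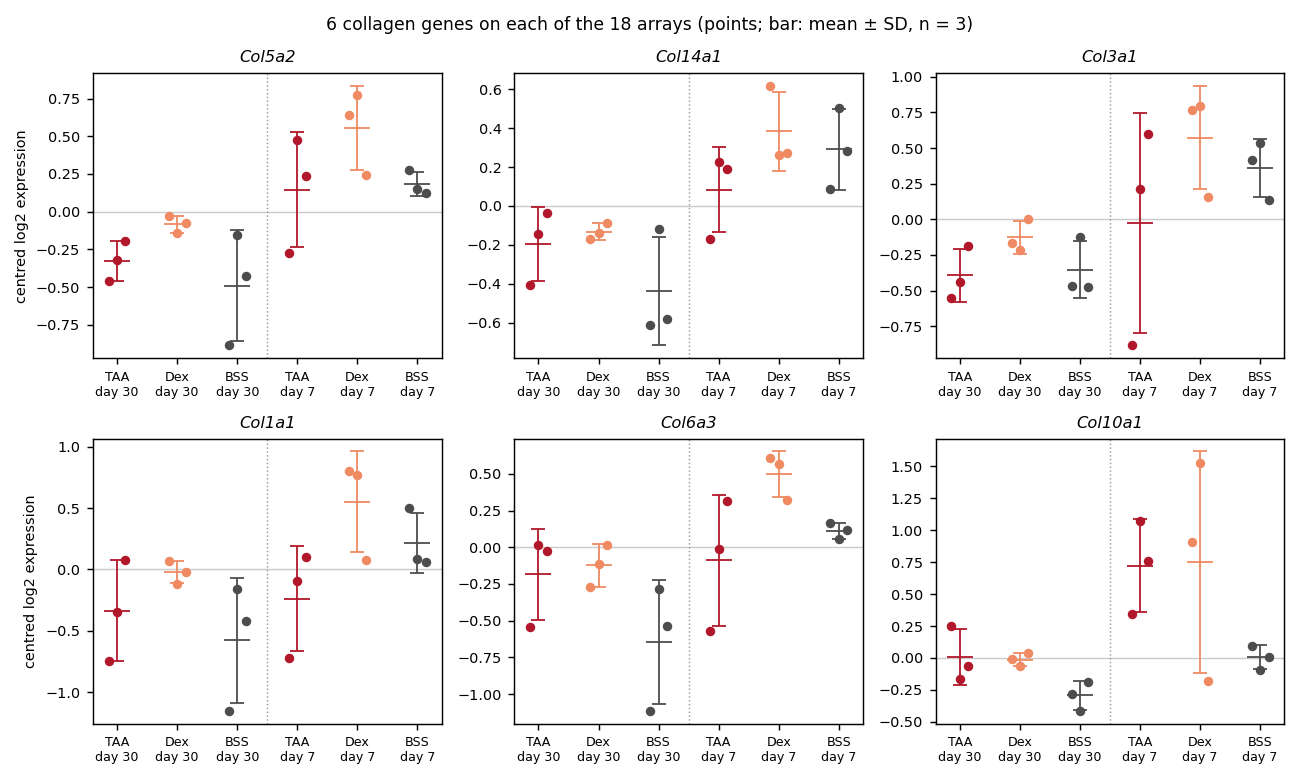
Deposited log2 value, relative to the median of all arrays, of Col5a2, Col14a1, Col3a1, Col1a1, Col6a3 and Col10a1 in each array (points) with the mean and SD of each group (bars, n = 3), for TAA, Dex and BSS at day 30 and then at day 7. All day 30 points of Col5a2 and Col14a1 lie below 0, and the highest points of Col10a1 (1.53 and 1.07) belong to Dex and TAA at day 7.

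Neither call held in all fits that left out 1 array. Leaving out single arrays in turn left an adjusted p under 0.05 for Col5a2 in 6 of 18 fits (adjusted p 0.00823 to 0.0781) and for Col14a1 in 13 of 18 (adjusted p 0.00501 to 0.0632), with log2 fold changes of -0.67 to -0.53 and of -0.56 to -0.47.

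Among the other fibrillar collagens, 4 had an unadjusted p of 0.05 or less, and none of them had an adjusted p under 0.05. Col3a1, the sole chain of type III collagen of vessel walls and loose stroma, had -0.55, -0.22 and 0.0029 as the lowest, median and highest value at day 30, against -0.88, 0.42 and 0.79 at day 7. Replicate 1 of TAA day 7 was lower than every day 30 array and the other 8 day 7 arrays were higher than all of them, and the log2 fold change of Col3a1 was -0.59 (SE 0.16, adjusted p = 0.133). By group, Col3a1 read -0.55, -0.44 and -0.19 in TAA, -0.17, -0.22 and 0.0029 in Dex and -0.46, -0.12 and -0.47 in BSS at day 30, and -0.88, 0.21 and 0.60 in TAA, 0.77, 0.79 and 0.16 in Dex and 0.42, 0.53 and 0.13 in BSS at day 7.

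The type I chains, the bulk of most connective tissue fibres, lay in the same direction with more spread. Col1a1 read -0.74, -0.35 and 0.079 in TAA, 0.066, -0.12 and -0.018 in Dex and -1.15, -0.16 and -0.42 in BSS at day 30, and -0.72, -0.097 and 0.10 in TAA, 0.80, 0.77 and 0.078 in Dex and 0.50, 0.086 and 0.06 in BSS at day 7. The days overlapped, and the TAA arrays of day 7 ranged over most of the day 30 values. The log2 fold change of Col1a1 was -0.49 (SE 0.16, adjusted p = 0.192). Col1a2 read -0.41, -0.19 and 0.098 in TAA, -0.15, 0.0057 and 0.38 in Dex and -0.79, -0.23 and -0.18 in BSS at day 30, and -0.22, 0.10 and 0.23 in TAA, 0.44, 0.45 and 0.088 in Dex and 0.081, 0.18 and -0.013 in BSS at day 7. Its log2 fold change was -0.31 (SE 0.11, adjusted p = 0.206), and its 3 probe sets gave -0.61, -0.029 and -0.30.

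Col5a1, the partner of Col5a2 in type V collagen, had a log2 fold change of -0.30 (SE 0.08, adjusted p = 0.119). The other fibrillar genes lay between -0.24 for Col11a1 (-0.15 without replicate 1 of BSS day 30), a type XI chain of thin fibrils, and 0.16 for Col2a1, the main collagen of cartilage and vitreous. Between them were Col5a3 (-0.11), Col24a1 (-0.088), Col11a2 (-0.049) and Col27a1 (0.14). In all, 9 of the 11 fibrillar genes were below 0, with a class median of -0.24.

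**Figure D2:**
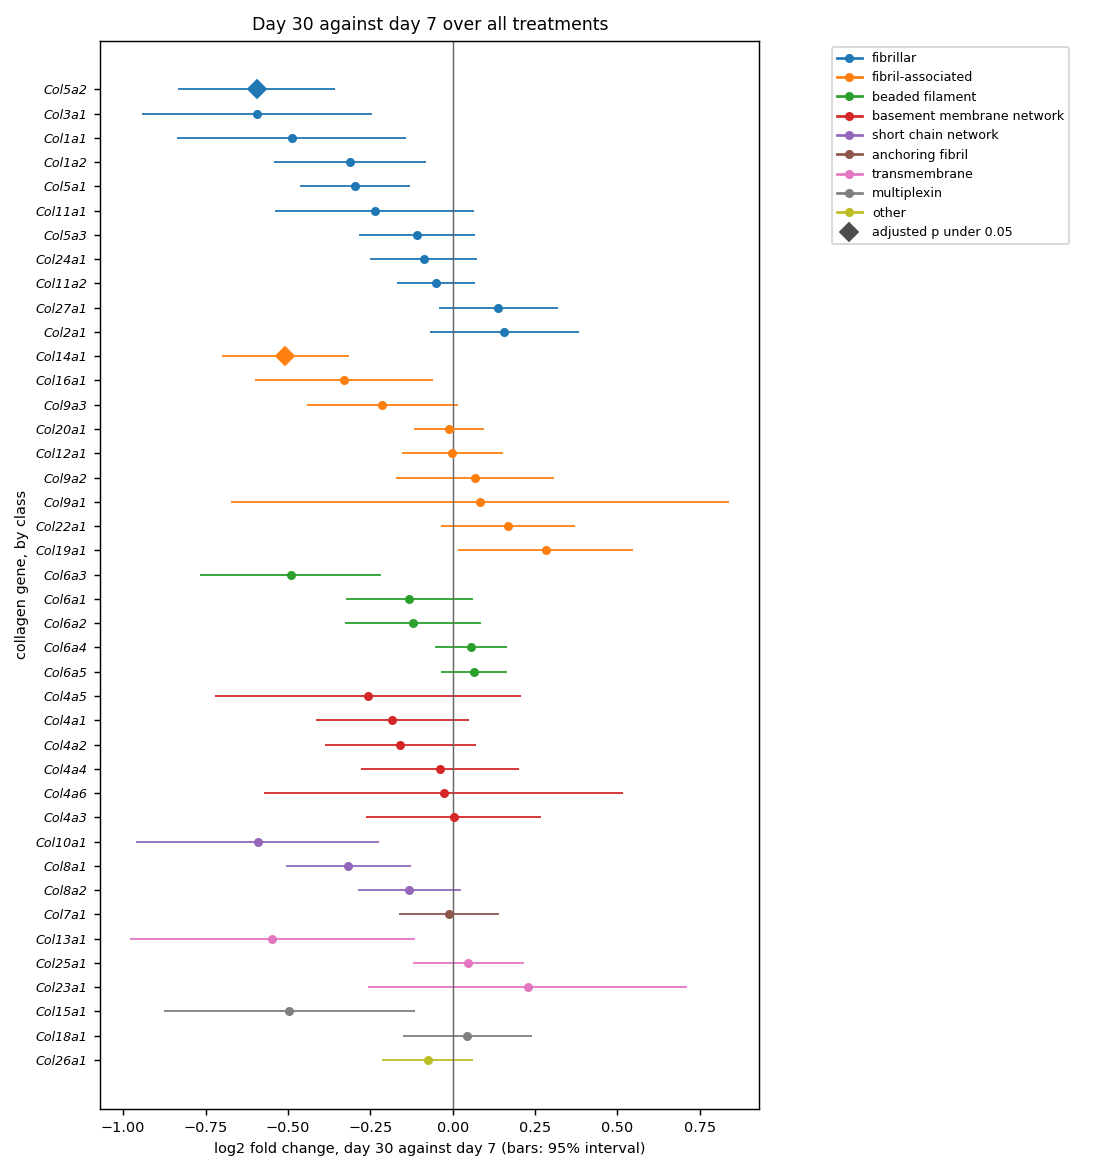
Log2 fold change of day 30 against day 7, over all treatments, of 41 collagen genes ordered by class, with 95% intervals (lines); diamonds mark an adjusted p under 0.05 and Col17a1 (0.61, SE 1.07) is left out for scale. The diamonds are Col5a2 (-0.59) and Col14a1 (-0.51), and 9 of the 11 fibrillar genes lie below 0.

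The 5 beaded filament genes were divided. Col6a3, the large chain that brings most of the globular domains to type VI collagen, read -0.54, 0.012 and -0.025 in TAA, -0.27, -0.11 and 0.015 in Dex and -1.11, -0.29 and -0.53 in BSS at day 30. At day 7 Col6a3 read -0.57, -0.012 and 0.32 in TAA, 0.61, 0.56 and 0.32 in Dex and 0.17, 0.055 and 0.12 in BSS. The day 30 and day 7 arrays were apart in Dex and in BSS and overlapped in TAA, and the log2 fold change over all treatments was -0.49 (SE 0.13, adjusted p = 0.117). Its partner chains had values of -0.13 for Col6a1 and -0.12 for Col6a2 (-0.053 and -0.05 without replicate 1 of BSS day 30), and the alternative chains Col6a4 and Col6a5 had 0.055 and 0.066.

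The short chain network collagens all lay below 0, with a median of -0.32. Col8a1, a chain of the hexagonal network of type VIII collagen, read -0.32, -0.48 and -0.10 in TAA, -0.099, -0.24 and -0.19 in Dex and 0.14, 0.0031 and -0.31 in BSS at day 30, and 0.13, 0.60 and -0.03 in TAA, -0.011, 0.26 and 0.074 in Dex and -0.06, 0.14 and 0.16 in BSS at day 7. Steroid arrays of day 30 were below all day 7 arrays of the same steroid, whereas the BSS arrays overlapped between the days. The log2 fold change was -0.32 (SE 0.09, adjusted p = 0.136), and its 3 probe sets gave -0.17, -0.66 and -0.11, the second of them with an adjusted p of 0.0283 when probe sets were tested one by one. Col8a2, the other type VIII chain, read -0.04, -0.14 and 0.038 in TAA, -0.21, 0.038 and 0.042 in Dex and -0.23, -0.015 and -0.45 in BSS at day 30, and 0.19, 0.12 and 0.015 in TAA, -0.09, 0.083 and 0.067 in Dex and -0.29, 0.21 and -0.087 in BSS at day 7. These groups overlapped, with a log2 fold change of -0.13. Col10a1, the network collagen of hypertrophic cartilage, had -0.59 (SE 0.17, adjusted p = 0.147) and is described with the steroid comparisons below.

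Of the other fibril-associated genes, Col16a1 read -0.53, -0.18 and 0.14 in TAA, -0.21, 0.05 and 0.11 in Dex and -1.20, -0.07 and -0.53 in BSS at day 30, against -0.05, 0.14 and -0.068 in TAA, 0.25, 0.071 and 0.22 in Dex and 0.052, 0.058 and -0.14 in BSS at day 7. Replicate 1 of BSS day 30 was its lowest array by a wide margin, and the log2 fold change was -0.33 (SE 0.13, adjusted p = 0.246). Col19a1 was the collagen with an unadjusted p of 0.05 or less and a positive value, 0.28 (SE 0.12, adjusted p = 0.305). It read 0.22, 0.48 and -0.079 in TAA, 0.028, -0.28 and 0.69 in Dex and 0.42, -0.0051 and 0.58 in BSS at day 30, and -0.11, 0.048 and 0.32 in TAA, -0.061, 0.15 and -0.14 in Dex and -0.20, -0.30 and -0.19 in BSS at day 7, so only the BSS arrays were apart between the days. The rest were Col9a3 (-0.21), Col20a1 (-0.011), Col12a1 (-0.00047), Col9a2 (0.069), Col9a1 (0.083) and Col22a1 (0.17), and the class median was -0.00047.

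The basement membrane chains differed little between the days. Col4a1 and Col4a2, which form the type IV collagen of nearly all basement membranes, had log2 fold changes of -0.18 and -0.16 (-0.079 and -0.073 without replicate 1 of BSS day 30). Col4a3 (0.0028) and Col4a4 (-0.038), chains of a network found in the kidney and in parts of the eye, and Col4a5 (-0.26, SE 0.22) and Col4a6 (-0.027) completed the class, of which 5 of 6 genes were below 0 with a median of -0.099. The anchoring fibril gene Col7a1, whose product ties the epithelial basement membrane to the stroma, read -0.095, -0.056 and 0.028 in TAA, 0.014, -0.014 and 0.19 in Dex and 0.061, 0.13 and -0.091 in BSS at day 30, and 0.11, -0.14 and -0.074 in TAA, 0.039, 0.12 and -0.17 in Dex and 0.45, -0.025 and -0.036 in BSS at day 7. It was flat but for replicate 1 of BSS day 7, with a log2 fold change of -0.012.

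Of the multiplexins, which stand in basement membranes and carry long sugar chains, Col15a1 had -0.50 (SE 0.18, adjusted p = 0.221) and Col18a1, the source of endostatin, 0.045. Col15a1 read -0.21, -0.20 and 0.014 in TAA, 0.19, -0.27 and -0.014 in Dex and -0.54, 0.39 and -0.44 in BSS at day 30, and -0.035, 0.94 and -0.067 in TAA, 0.54, 0.56 and 0.41 in Dex and 0.053, 1.02 and -0.052 in BSS at day 7. Only the Dex arrays were apart, and replicate 2 of both TAA and BSS at day 7 lay far above the arrays beside it. The transmembrane collagens, which sit in the cell membrane, were Col13a1 (-0.55, SE 0.20, adjusted p = 0.232), Col25a1 (0.048), Col23a1 (0.23) and Col17a1 (0.61, SE 1.07). Col26a1 had -0.076, with values of -0.047, -0.06 and 0.083 in TAA, 0.19, -0.12 and 0.0088 in Dex and 0.039, -0.018 and -0.041 in BSS at day 30, and 0.095, 0.32 and -0.15 in TAA, 0.13, 0.20 and 0.069 in Dex and -0.082, 0.20 and -0.064 in BSS at day 7, none farther from 0 than 0.32.

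The thresholds that the methods state, an unadjusted p of 0.05 or less and a fold of at least 1.5, were met over all treatments by Col3a1, Col5a2 and Col10a1, all lower at day 30 (3 of 42, 7.14%, against 1.01% of all genes). No collagen had day 30 values that were all below, or all above, its day 7 values (0 of 42, against 0.154% of all genes lower and 0.0715% higher).

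Within single treatments, 3 arrays faced 3, and 0 of 42 collagens had an adjusted p under 0.05 by limma in BSS (0.0055% of all genes did), in Dex (0.0275%) and in TAA (0.011%). In BSS 11 of 42 had an unadjusted p of 0.05 or less (26.2%, against 12.4% of all genes), and the methods' t-test gave 7 at that p (against 5.46% of all genes) and 0 after adjustment. In BSS 8 collagens had all day 30 values below all day 7 values (19%, against 6.8% of all genes): Col1a1, Col1a2, Col3a1, Col5a1, Col5a2, Col6a3, Col10a1 and Col14a1. Of the 8, the log2 fold change was -0.79 for Col1a1, -0.76 for Col6a3, -0.73 for Col14a1 (adjusted p = 0.283), -0.71 for Col3a1 and -0.67 for Col5a2. The median of the 42 genes in BSS was -0.16, against -0.033 for all genes. Without replicate 1 of BSS day 30 the count at an unadjusted p of 0.05 or less was 4, and the log2 fold change in BSS was -0.51 for Col1a1, -0.52 for Col6a3, -0.64 for Col14a1, -0.66 for Col3a1 and -0.48 for Col5a2. Without replicate 2 of BSS day 30 the count was 15, of which 7 had an adjusted p under 0.05. Between the days in BSS, the median was 3.36 for 12 rod genes, 0.94 for 13 lens genes and -0.40 for 11 fibroblast genes. Without replicate 1 of BSS day 30 these medians were 2.58, 1.06 and -0.24. The part of these markers in the BSS collagen values was not tested.

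In Dex 6 collagens had an unadjusted p of 0.05 or less (14.3%, against 3.33% of all genes), and 7 by the methods' t-test (against 3.93%), with 0 after adjustment. They were Col10a1 (-0.76), Col3a1 (-0.70), Col5a2 (-0.64), Col6a3 (-0.62), Col14a1 (-0.51) and Col5a1 (-0.34), and 35 of 42 genes were below 0 (83.3%, against 54.4%). Without replicate 1 or 2 of Dex day 7, or replicate 1 or 2 of Dex day 30, the count was 3. In TAA 3 collagens had such a p (7.14%, against 5.54% of all genes; 2 by the methods' t-test, against 5.72%, with 0 after adjustment), Col10a1 (-0.72), Col8a1 (-0.53) and Col5a2 (-0.47), and 22 of 42 were below 0. This count was 5 without replicate 1 of TAA day 7 or replicate 3 of TAA day 30, 1 without replicate 2 of TAA day 7 or of TAA day 30, and 2 without replicate 3 of TAA day 7. Col5a2 was on each of these lists. Whether the day difference itself differed between treatments is given with the steroid comparisons.

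Markers of other cells were counted in the same comparison, over all treatments. Of 11 fibroblast genes that are no collagens, 9 were below 0 at day 30 against day 7 (median -0.22), among them Postn (-0.59), Lum (-0.40) and Pdgfra (-0.38), and their mean per array ran from -0.47 to 0.13 at day 30 and from -0.49 to 0.33 at day 7. All 10 endothelial genes were below 0 (median -0.15), as were all 10 RPE genes (median -0.062), while 12 of 12 rod genes (median 1.47) and 13 of 13 lens genes (median 0.61) were above 0. Without replicate 1 of BSS day 30, 8 of the 10 endothelial genes were below 0 (median -0.09), and all RPE, rod and lens genes kept their direction. Angptl7, a gene of corneal stroma and the outflow tissue, fell by 1.27 (limma, adjusted p = 0.00439). The list of 5 corneal stroma and endothelium genes that holds Angptl7 had a median of 0.032, so Angptl7 did not stand for its list. The part of any of these in the collagen values was not tested.

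**Figure D3:**
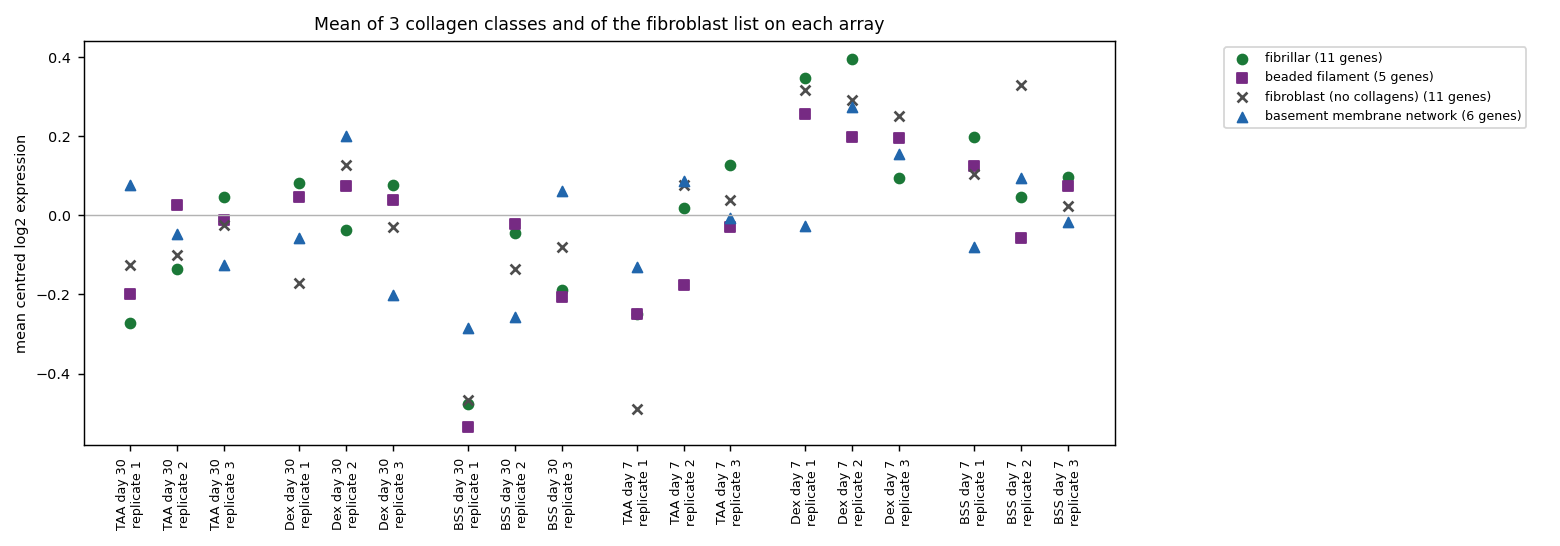
Mean log2 value per array of the fibrillar, beaded filament and basement membrane network collagens and of 11 fibroblast genes that are no collagens (points), for TAA, Dex and BSS at day 30 and then at day 7. Replicate 1 of BSS day 30 holds the lowest fibrillar (-0.48) and beaded filament (-0.54) mean, and replicate 1 of TAA day 7 the lowest fibroblast mean (-0.49).

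The second question was whether either steroid moved the collagens relative to BSS. At day 7 after Dex, 0 of 42 collagens had an adjusted p under 0.05, as did 0% of all genes, and the methods' t-test also gave 0 after adjustment. At an unadjusted p of 0.05 or less there was 1 by limma (Col10a1; 2.38%, against 1.83% of all genes) and 5 by the methods' t-test (against 3.94%), and leaving out single arrays gave 0 to 5, the most without replicate 1 of BSS day 30. More collagens than genes at large lay above 0, 33 of 42 (78.6%, against 50.8%), with a median of 0.14 against 0.0022, and the count above 0 stayed between 28 and 35 when single arrays were left out. All 3 Dex arrays lay above all 3 BSS arrays for 8 collagens (19%, against 4.4% of all genes). They were Col6a3 (0.38), Col4a1 (0.34), Col4a2 (0.34), Col6a1 (0.27), Col12a1 (0.25), Col19a1 (0.21), Col16a1 (0.19) and Col25a1 (0.10). In the same comparison 10 of 10 endothelial genes (median 0.33), 9 of 11 fibroblast genes (0.16) and 12 of 12 rod genes (1.97) were above 0, and their part in the collagen values was not tested.

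Col10a1 read 0.91, 1.53 and -0.18 in Dex, against 0.095, -0.092 and 0.011 in BSS at day 7. Its high value thus came from replicates 1 and 2, while replicate 3 was below every BSS array, and the log2 fold change was 0.75 (SE 0.30, 95% interval 0.11 to 1.38, adjusted p = 0.9997). In TAA it read 0.34, 1.07 and 0.76 at day 7, all above BSS, with a log2 fold change of 0.72 (95% interval 0.08 to 1.35, adjusted p = 0.991). At day 30 Col10a1 read 0.25, -0.17 and -0.064 in TAA and -0.011, -0.065 and 0.035 in Dex, against -0.28, -0.41 and -0.19 in BSS. All arrays of both steroids were above every BSS array at day 30, though the lowest TAA array (-0.17) only just cleared the highest BSS array (-0.19). The log2 fold changes against BSS were 0.30 for TAA and 0.28 for Dex. Col10a1 thus averaged above BSS in all 4 steroid groups, with groups apart in 3 of them and an adjusted p under 0.05 in none. Of 7 other cartilage genes, 5 were above 0 for TAA (median 0.17) and 3 for Dex (median -0.022) at day 30, and 5 for TAA (median 0.11) and 6 for Dex (median 0.20) at day 7. Among them Comp, a matrix protein of cartilage and tendon, had 0.92 for TAA and 0.98 for Dex at day 30, and 0.20 for TAA and 0.32 for Dex at day 7. Matn3, a cartilage matrilin, had 0.79 for TAA and 0.55 for Dex at day 30, and 0.42 for TAA and 0.36 for Dex at day 7. Others of the 7 lay below 0 in some of these comparisons and above 0 in others. Sox9 had -0.14 for TAA and -0.091 for Dex at day 30, and 0.11 for TAA and -0.11 for Dex at day 7. Cnmd had 0.27 for TAA and -0.33 for Dex at day 30, and 0.32 for TAA and 0.42 for Dex at day 7. None of the 7 had an adjusted p under 0.05 in these comparisons, and the part of cartilage in the Col10a1 values was not tested.

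At day 7 after TAA, by limma, 0 of 42 collagens had an adjusted p under 0.05 (0.0055% of all genes did), 2 had an unadjusted p of 0.05 or less (4.76%, against 4.23% of all genes), and the methods' t-test gave 0 after adjustment and 3 before it (against 5.44% of all genes). Below 0 were 28 of 42 (66.7%, against 50.2%), with 10 of 11 fibrillar and 5 of 5 beaded filament genes among them, and the median was -0.054. With quantile normalisation on top of the deposited values, 23 were below 0. The split also rested on replicate 1 of TAA day 7, without which 24 of 42 were above 0 and the median was 0.042.

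The gene with an unadjusted p of 0.05 or less in the other direction was Col6a2, with -0.38, -0.41 and -0.10 in TAA, 0.29, 0.16 and 0.24 in Dex and 0.25, -0.13 and 0.22 in BSS at day 7. All TAA arrays were below the Dex arrays and 1 was above the lowest BSS array, and the log2 fold change of TAA against BSS was -0.41 (95% interval -0.77 to -0.05). Col1a1, named above by array, had -0.45 (SE 0.28) and Col3a1 -0.39 in this comparison, both with overlapping groups. Col18a1 (0.20) and Col19a1 (0.31) lay above BSS in all TAA arrays, as Col10a1 did (3 of 42, against 4.91% of all genes), and Col4a4 (-0.24) and Col6a1 (-0.20) below it (2 of 42, against 6.54%). In the same comparison 9 of 9 surface epithelium genes (median -2.26) and 13 of 13 lens genes (-1.05) were below 0. So were 4 of 4 adipocyte genes (-0.76) and 14 of 14 skeletal muscle genes (-0.62). The 11 fibroblast genes lay on both sides of 0, from -1.53 for Dpt and -1.12 for Pi16 to 0.32 for Fbln1. The part of these markers in the collagen values was not tested.

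At day 30 after Dex, 7 collagens had an unadjusted p of 0.05 or less, all higher than BSS (16.7%, against 2.85% of all genes in that direction). They were Col16a1 (0.58, SE 0.22), Col6a3 (0.52, SE 0.22), Col1a2 (0.48, SE 0.19), Col6a1 (0.47, SE 0.16), Col4a2 (0.40, SE 0.19), Col6a2 (0.37, SE 0.17) and Col12a1 (0.27, SE 0.12). By limma 0 of 42 had an adjusted p under 0.05, as did 0% of all genes, the smallest being 0.934 for Col6a1, and the methods' t-test gave 0 after adjustment and 1 before it (against 1.52% of all genes). Above 0 were 34 of 42 (81%, against 53.7%), with a median of 0.18 against 0.011. The beaded filament genes (5 of 5 above 0, median 0.37) and the fibrillar genes (10 of 11, median 0.29) lay highest.

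The values per array show how far this rested on 1 BSS array. Col6a1 read -0.055, 0.28 and 0.23 in Dex and -0.23, 0.076 and 0.0031 in TAA, against -0.78, -0.16 and -0.0031 in BSS at day 30. Col6a2 read 0.16, 0.052 and 0.03 in Dex and -0.26, -0.012 and -0.035 in TAA, against -0.72, 0.14 and -0.29 in BSS. In both genes replicate 1 of BSS was far below the other arrays, while the remaining BSS arrays overlapped the Dex arrays. Without that array 0 of the 42 collagens had an unadjusted p of 0.05 or less and the median was 0.12. The log2 fold changes against BSS were then 0.28 for Col16a1, 0.29 for Col6a3, 0.29 for Col1a2, 0.23 for Col6a1, 0.14 for Col4a2, 0.16 for Col6a2 and 0.19 for Col12a1. Without replicate 2 of BSS the count was 15, and without replicate 3 of Dex it was 3.

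For 7 collagens all Dex arrays lay above all BSS arrays at day 30 (16.7%, against 2.34% of all genes). They were Col1a1 (0.56), Col6a3 (0.52), Col1a2 (0.48), Col11a1 (0.47), Col5a2 (0.41), Col5a1 (0.29) and Col10a1 (0.28). With replicate 1 of BSS day 30 left out, the values were 0.27 for Col1a1, 0.21 for Col11a1 and 0.21 for Col5a2. In the same comparison 10 of 10 endothelial genes (median 0.40) and 10 of 11 fibroblast genes (median 0.22) were above 0, and 12 of 12 rod genes (median -1.53) and 13 of 13 lens genes (median -1.18) were below 0. The median was also above 0 for 9 smooth muscle and pericyte genes (0.42), 11 macrophage genes (0.32) and 7 pigment genes (0.21). Without replicate 1 of BSS day 30 the medians were 0.19 for the endothelial, 0.075 for the fibroblast and -0.76 for the rod genes. For the smooth muscle and pericyte genes the median was then 0.29, for the macrophage genes 0.16 and for the pigment genes 0.12. Their part in the collagen values was not tested.

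At day 30 after TAA, 0 of 42 collagens had an adjusted p under 0.05 by limma, as did 0% of all genes, and an unadjusted p of 0.05 or less was found for 0, against 2.57% of all genes. The methods' t-test gave 0 at both (2.3% of all genes at the unadjusted p), and leaving out single arrays gave 0 to 6 at the unadjusted p, the most without replicate 2 of BSS day 30. Above 0 were 31 of 42 (73.8%, against 54.3%), with a median of 0.12, and the highest values after Col9a1 (0.69) were those of Col6a3 (0.46) and Col16a1 (0.41). Leaving out replicate 1 of BSS day 30, 27 of 42 were above 0 with a median of 0.061, and Col6a3 had 0.23 and Col16a1 0.11. Col10a1 was the collagen with groups apart (1 of 42, against 3.02% of all genes higher). The TAA and Dex comparisons at a given day share their BSS arrays, so their common direction at day 30 is not independent. For TAA at day 30 all 10 endothelial (median 0.25) and all 9 surface epithelium genes (0.27) were above 0, while all 12 rod (-0.86), all 13 lens (-1.15), all 14 skeletal muscle (-0.28) and all 11 macrophage genes (-0.22) were below 0. The median was 0.18 for the 11 fibroblast genes and 0.29 for the 9 smooth muscle and pericyte genes. Without replicate 1 of BSS day 30, 7 of the 10 endothelial genes were above 0 (median 0.077) and 8 of the 12 rod genes below 0 (-0.091). Above 0 were then 9 of the 11 fibroblast genes (median 0.057) and 8 of the 9 smooth muscle and pericyte genes (0.23). The part of these markers in the collagen values was not tested.

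**Figure D4:**
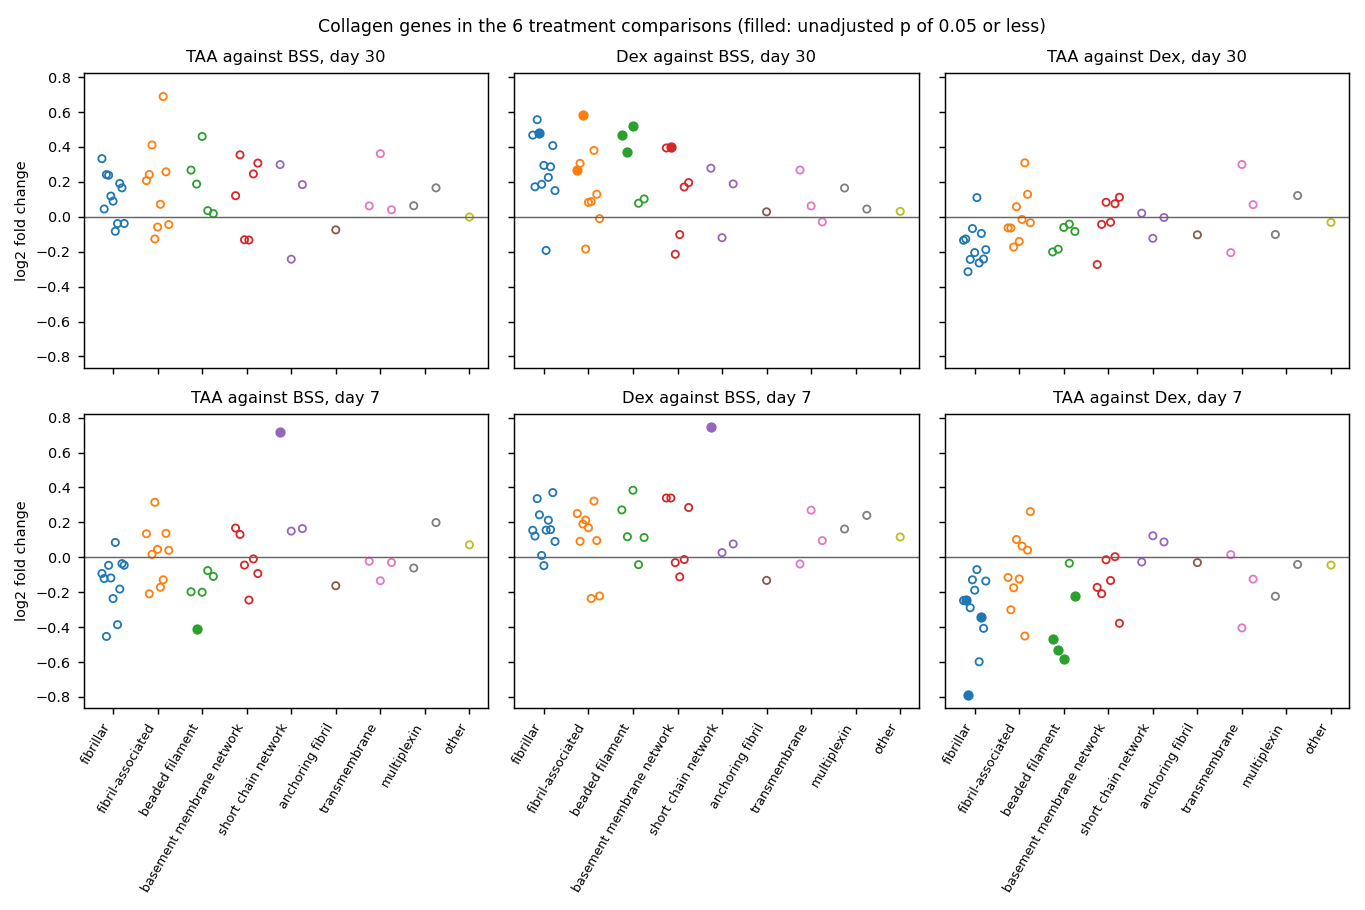
Log2 fold change of each collagen gene (points) by class in the 6 treatment comparisons, TAA against BSS, Dex against BSS and TAA against Dex at day 30 (top) and at day 7 (bottom); filled points have an unadjusted p of 0.05 or less and Col17a1 is left out for scale. In TAA against Dex at day 7 all 11 fibrillar and all 5 beaded filament genes lie below 0, and none of the points shown has an adjusted p under 0.05.

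Set side by side at day 7, most collagens lay lower after TAA than after Dex, without passing the test. Below 0 for TAA against Dex were 34 of 42 collagens (81%, against 50.6% of all genes), with all 11 fibrillar (median -0.25) and all 5 beaded filament genes (median -0.47) and 3 of 4 transmembrane genes (median -0.26) among them, and a median of -0.15 over the family. An unadjusted p of 0.05 or less was found for 7, all lower after TAA (16.7%, against 1.34% of all genes in that direction). By limma 0 of 42 had an adjusted p under 0.05 (the smallest was 0.99996), as did 0% of all genes, and the methods' t-test gave 0 after adjustment and 4 before it (against 5.08% of all genes).

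The 7 genes were Col1a1 (-0.79, 95% interval -1.39 to -0.19), Col6a3 (-0.58, -1.06 to -0.11), Col6a2 (-0.53, -0.89 to -0.17), Col6a1 (-0.47, -0.80 to -0.13), Col5a1 (-0.34), Col11a2 (-0.24) and Col6a5 (-0.22). Col6a1 read -0.23, -0.22 and -0.034 in TAA and 0.39, 0.26 and 0.28 in Dex at day 7, against -0.0034, 0.015 and 0.095 in BSS. The 3 groups were apart, with BSS between the steroids. All TAA arrays were below all Dex arrays for 8 collagens (19%, against 5.09% of all genes): Col4a2, Col4a4, Col6a1, Col6a2, Col6a3, Col6a5, Col11a2 and Col14a1. Without replicate 1 of TAA day 7, or without replicate 1 of Dex day 7, the count at an unadjusted p of 0.05 or less was 3, and without replicate 2 of Dex day 7 it was 4. Without replicate 1 of TAA day 7, 32 of 42 were below 0. Below 0 here were also 9 of 11 fibroblast genes (median -0.27), 9 of 10 endothelial genes (-0.25), 9 of 9 surface epithelium genes (-1.79), 13 of 13 lens genes (-0.98), 14 of 14 skeletal muscle genes (-0.62) and 12 of 12 rod genes (between -1.44 and -0.0023), and their part in the collagen values was not tested.

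Between the TAA and Dex arrays of day 30, by limma, 0 of 42 collagens had an adjusted p under 0.05, as did 0% of all genes, and 0 an unadjusted p of 0.05 or less (1.62% of all genes did), and the methods' t-test gave 0 after adjustment and 2 before it (against 1.75% of all genes). Below 0 were 30 of 42 (71.4%, against 49.1%), with a median of -0.064 (-0.16 to -0.046 without single arrays), and all TAA arrays were below all Dex arrays for Col4a1 (-0.27), Col5a2 (-0.24) and Col6a2 (-0.19), 3 of 42 against 2.57% of all genes. For Col1a1 the difference was -0.31 with a 95% interval of -0.92 to 0.29, which includes 0 and also the day 7 value. Whether TAA and Dex differed more at one day than at the other was not tested. Below 0 in this comparison were 10 of 11 macrophage genes (median -0.55), 10 of 10 endothelial genes (-0.14) and 14 of 14 skeletal muscle genes (-0.38), and their part in the collagen values was not tested.

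Whether the steroid effect differed between the days was tested as an interaction, the effect at day 30 minus that at day 7. For Dex 0 of 42 collagens had an adjusted p under 0.05 by limma (0% of all genes did) and 0 an unadjusted p of 0.05 or less (2.72% of all genes did), the smallest being 0.12. For TAA 0 had an adjusted p under 0.05 by limma (0% of all genes) and 1 an unadjusted one, Col6a2, with 0.60 (SE 0.24, adjusted p = 0.968; 0.38 without replicate 1 of BSS day 30), against 3.04% of all genes. Leaving out single arrays gave 0 to 3 such collagens for Dex and 0 to 8 for TAA, the most without replicate 2 of BSS day 30 in both. The methods' t-test does not cover the interaction. An F-test over the 6 groups gave 0 of 42 with an adjusted p under 0.05 (0.0495% of all genes did), the smallest being 0.386, and 12 with an unadjusted p of 0.05 or less (28.6%, against 5.29% of all genes). The one-way analysis of variance of the methods gave 0 after adjustment and 9 before it (against 5.13% of all genes). Without replicate 1 of Dex day 7 the F-test gave 7 at an unadjusted p of 0.05 or less.

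Col4a1, Col4a2 and Col18a1 are known from the basement membranes of RPE and vessels and were followed by array whatever their test. Col4a4 and Col4a5 are given because their values here were the widest of their class. This was in TAA against BSS at day 7 for Col4a4 and in day 30 against day 7 for Col4a5. Col4a1 read -0.26, -0.17 and -0.14 in TAA, -0.027, 0.078 and 0.20 in Dex and -0.93, -0.052 and 0.047 in BSS at day 30, and 0.12, 0.22 and -0.22 in TAA, 0.26, 0.22 and 0.15 in Dex and -0.23, -0.093 and -0.057 in BSS at day 7. Col4a2 read -0.24, -0.027 and 0.30 in TAA, -0.08, 0.23 and 0.011 in Dex and -0.86, 0.0086 and -0.19 in BSS at day 30, and 0.11, 0.13 and -0.13 in TAA, 0.39, 0.19 and 0.16 in Dex and -0.22, -0.045 and -0.0086 in BSS at day 7. In both genes replicate 1 of BSS day 30 was the lowest array of all 18, and the Dex arrays of day 7 were above the BSS arrays of that day.

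Col4a4 read -0.18, -0.22 and 0.22 in TAA, 0.23, -0.18 and -0.14 in Dex and 0.48, 0.24 and -0.51 in BSS at day 30, and -0.072, -0.025 and -0.19 in TAA, 0.031, 0.054 and 0.026 in Dex and 0.018, 0.24 and 0.19 in BSS at day 7. At day 7 the TAA arrays were its lowest. Col4a5 read 0.39, 0.08 and -0.90 in TAA, -0.20, 0.38 and -0.83 in Dex and -0.51, -0.97 and 0.31 in BSS at day 30, and -0.41, 0.20 and 0.22 in TAA, -0.41, 0.38 and 0.036 in Dex and 0.033, 0.0048 and 0.0037 in BSS at day 7. Its spread within each day 30 group exceeded the differences between the groups. Col18a1 read 0.24, 0.14 and -0.038 in TAA, -0.076, 0.26 and -0.21 in Dex and -0.12, -0.058 and 0.021 in BSS at day 30, and -0.051, -0.01 and 0.14 in TAA, -0.30, 0.47 and 0.03 in Dex and -0.11, -0.092 and -0.32 in BSS at day 7. The TAA arrays of day 7 were above all BSS arrays of day 7, and the Dex arrays spread on both sides of them.

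Col17a1, the transmembrane collagen of hemidesmosomes in stratified epithelia, had by far the widest values of the family. It read 1.75, 2.72 and -3.37 in TAA, -2.50, 3.21 and -1.97 in Dex and 1.16, -2.30 and 2.01 in BSS at day 30, and -2.67, -2.60 and -0.37 in TAA, -2.78, 1.36 and 1.83 in Dex and 1.89, -1.85 and 0.37 in BSS at day 7. High and low arrays stood side by side in 5 of the 6 groups, and TAA day 7 was the group without a positive value, with a log2 fold change against BSS of -2.02. The mean of the 9 surface epithelium genes was high in the same arrays: 1.70, 1.79 and -2.12 in TAA, -1.85, 2.97 and -1.65 in Dex and 0.67, -2.07 and 1.16 in BSS at day 30, and -2.07, -2.26 and -0.28 in TAA, -2.13, 1.44 and 1.79 in Dex and 1.58, -1.30 and 0.26 in BSS at day 7. Col17a1 and this mean had the same sign in 18 of 18 arrays, and the part of epithelial tissue in the collagen values was not tested.

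**Figure D5:**
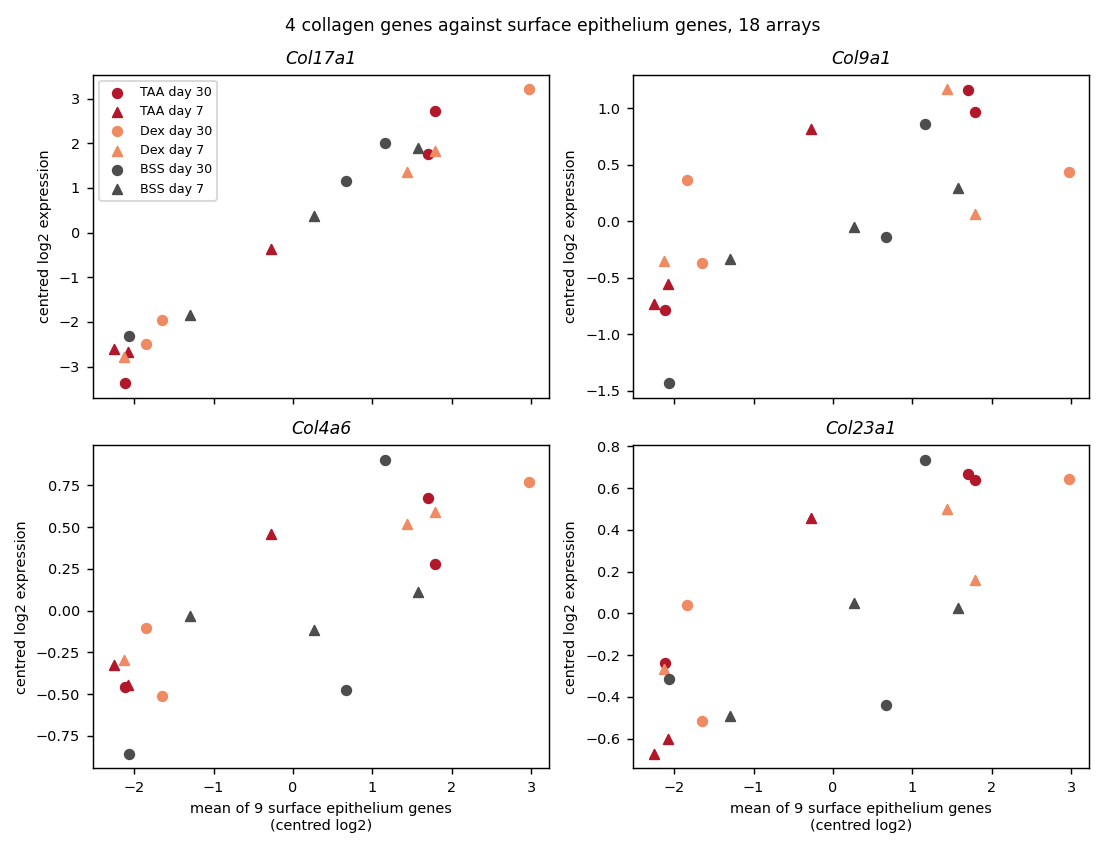
Log2 value of Col17a1, Col9a1, Col4a6 and Col23a1 in each of the 18 arrays (vertical axes) against the mean log2 value of 9 surface epithelium genes (horizontal axis), by treatment and day. Col17a1 spans -3.37 to 3.21 over a surface epithelium mean of -2.26 to 2.97, while the other genes span a smaller range.

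Other collagens with a wide spread inside groups had a smaller range. Col9a1, a fibril-associated chain, read 1.17, 0.97 and -0.78 in TAA, 0.36, 0.43 and -0.37 in Dex and -0.14, -1.43 and 0.86 in BSS at day 30, and -0.55, -0.74 and 0.81 in TAA, -0.35, 1.17 and 0.062 in Dex and 0.30, -0.33 and -0.051 in BSS at day 7. Col4a6 ranged from -0.86 to 0.90 and Col23a1 from -0.67 to 0.74 over the 18 arrays. Col9a1 had the sign of the surface epithelium mean in 14 of the 18 arrays, and Col4a6 and Col23a1 each in 15. In these genes too replicate 3 of TAA day 30 lay below its group and replicate 3 of BSS day 30 above it.

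Chains that assemble into 1 molecule were compared over the 18 arrays in 9 pairs, with a permutation test of 100000 resamples and adjustment over the 9. Col5a1 and Col5a2 had r = 0.91 (rho = 0.89, adjusted p = 4.5e-05), Col1a1 and Col1a2 r = 0.88 (rho = 0.84, adjusted p = 4.5e-05), and Col4a1 and Col4a2 r = 0.86 (rho = 0.75, adjusted p = 0.000375). Within day 30 and within day 7 these were 0.91 and 0.82, 0.86 and 0.88, and 0.82 and 0.95. Without the 2 arrays farthest from the median of the first chain, r was 0.84 for the type V pair, 0.78 for the type I pair and 0.58 for the Col4a1 pair. Of all genes, Col4a2 had the highest r with Col4a1.

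The pairs Col4a5 and Col4a6 (r = 0.86, rho = 0.89, adjusted p = 0.000108), Col9a1 and Col9a2 (r = 0.85, rho = 0.80, adjusted p = 6e-05) and Col6a1 and Col6a2 (r = 0.81, rho = 0.66, adjusted p = 0.000108) also passed this permutation test. Within day 30 and within day 7 their r was 0.96 and 0.67, 0.93 and 0.84, and 0.78 and 0.86, and without the 2 farthest arrays 0.83, 0.84 and 0.63. Over deviations from the group means r was 0.64 for Col6a1 and Col6a2 (adjusted p = 0.20, permutation test), and within day 7 the adjusted p for Col4a5 and Col4a6 was 0.0804 (exact permutation test), so neither pair passed in every form. For Col4a3 and Col4a4 r was 0.60 (rho = 0.60, adjusted p = 0.011, permutation test) but 0.34 without the 2 farthest arrays, so the relation rested on them, and within day 30 and day 7 it was 0.72 and 0.47. No relation passed for Col8a1 and Col8a2 (r = 0.45, rho = 0.47, adjusted p = 0.0692, permutation test), with 0.062 within day 30 and 0.48 within day 7, or for Col11a1 and Col11a2 (r = 0.26, rho = 0.27, adjusted p = 0.303, permutation test), with 0.64 and -0.20. Array quality and tissue composition are shared by all points of such a relation.

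Over the same 18 arrays, 9 of the 41 other collagens were among the 100 genes with the highest r to Col1a1, of 18193. They were Col5a1 (r = 0.96), Col6a3 (0.92) and Col5a2 (0.90) at ranks 1 to 3, Col1a2 at rank 6, Col3a1 at rank 8, Col6a2 at rank 15, Col14a1 at rank 20, Col6a1 at rank 30 and Col16a1 at rank 35. The genes nearest to Col1a1 that are no collagens were Ppic (0.889), Thbs2 (0.880), Fgd6 (0.866), Car6 (0.840), Piezo2 (0.821), D430019H16Rik (0.809), Wnt5a (0.809), Lmo2 (0.806), Mcam (0.806) and Sting1 (0.803). Thbs2 encodes thrombospondin 2, a matrix protein of fibroblasts. These correlations are given as a description.

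Genes that fold, process or bind collagen were followed as the surrounding pathway. Of 17 genes of collagen folding and modification, 10 of procollagen processing and cross-linking and 9 collagen receptors, 0 had an adjusted p under 0.05 at day 30 against day 7 in either direction. Below 0 were 13 of the 17 folding genes (median -0.077), 7 of the 10 processing genes (median -0.10) and 8 of the 9 receptors (median -0.094). Pcolce2, an enhancer of procollagen cleavage, met the thresholds of the methods with -0.66 (SE 0.20, adjusted p = 0.164). The folding genes with the widest values were P4ha1, a subunit of prolyl 4-hydroxylase (-0.25), and Colgalt2, a collagen galactosyltransferase (0.22), and the receptors Lair1 (-0.31) and Itga1 (-0.25). Serpinh1, the collagen chaperone HSP47, had -0.16. Loxl1, an enzyme of the lysyl oxidase family of cross-linking enzymes, lay in the other direction with 0.34 (SE 0.09, adjusted p = 0.132).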

How the data were processed

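RPE/choroid RNA of 18 mice was hybridised to Affymetrix Mouse Genome arrays, 1 array per animal, and the sources name more than 1 labelling kit. The deposited values are log2 signals made by the authors with RMA (per the labels' processing notes) and set to the median of all samples as baseline (in GeneSpring, per the methods). Checked here, the median of each probe set was 0 within 5e-07, so no level, background or filter on weak signals could be had from these values. Of the probe sets, 34958 had 1 gene symbol, 932 several and 9211 none, and 34754 matched a RefSeq gene with 0 symbols changed. Probe sets with 1 symbol were averaged per gene, which gave 18194 genes.

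Groups were taken from the labels. All 6 groups entered 1 limma fit (limma 3.58.1 with eBayes, R 4.3.3, 12 residual and 2.64 prior degrees of freedom), with Benjamini-Hochberg adjustment over all genes and a threshold of 0.05. Compared were TAA or Dex with BSS and TAA with Dex at both days, day 30 with day 7, the interactions, and all groups in an F-test. The script was tested on simulated data. Correlations used a permutation test (scipy 1.17.1, 100000 resamples, smallest p 1e-05, or all 362880 orders within a day). The number of arrays limits precision: the median SE was 0.186 for 3 against 3 arrays and 0.107 for the days.

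Values by array are given for members past a threshold in any comparison, for the member of each class with the widest value in TAA against BSS at day 7 and in day 30 against day 7, and for Col1a1, Col1a2, Col3a1, Col4a1, Col4a2, Col6a1, Col8a1, Col8a2 and Col18a1; Col9a1 was added after its values were seen. Pathway genes past a threshold are named, otherwise the 2 with the widest values, and Serpinh1 and Loxl1 were added after their values were seen. The members and lists were chosen with earlier results of these data known. Alternatives were the median of probe sets, single probe sets, a robust and trended prior, array weights, only the arrays compared, quantile normalisation, array medians subtracted, a filter on the lowest 20 percent of SD, the methods' t-test and analysis of variance, a replicate block, and leaving out each array. The same replicate number did not pair the arrays.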

Additional observations from a re-analysis of the deposited data

How the results depend on the processing

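For day 30 against day 7 over all treatments, the count of collagens with an adjusted p under 0.05 was 2 and held the same genes, Col5a2 and Col14a1, with the median of probe sets, a robust and trended prior, array medians subtracted, the filter on SD and the replicate block. It was 9 with array weights, 3 when probe sets were tested one by one (Col8a1 added), and 1 with quantile normalisation (Col5a2) or the methods' t-test (Col14a1). Leaving out single arrays gave 0 to 6, with 0 without replicate 3 of BSS day 7, replicate 1 of Dex day 7, replicate 2 or 3 of TAA day 7 or replicate 1 of TAA day 30, and 6 without replicate 2 of BSS day 30. Within BSS the count was 13 with array weights and 0 to 7 without single arrays, and for the F-test it was 2 with array weights and 0 to 1 without single arrays. In the other comparisons it was 0 under every alternative run. Array medians subtracted left 26 of 42 collagens below 0 at day 30 against day 7, and quantile normalisation left 19 above and 23 below 0 for TAA against BSS at day 7.

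The replicate block was tried because groups share replicate numbers, and it kept 2 collagens past the threshold. The numbers did not pair the arrays: correlations of deviations between arrays of the same number ran from -0.755 to 0.615. Over 15 pairs of arrays each, they ran from -0.483 to 0.28 for number 1, from -0.755 to 0.52 for number 2 and from -0.728 to 0.615 for number 3.

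For Col4a3 and Col4a4, r was 0.61 over deviations from the group means (adjusted p = 0.0654, permutation test), 0.47 within day 7 (adjusted p = 0.219, exact permutation test), 0.34 without the 2 farthest arrays (adjusted p = 0.228, permutation test) and 0.44 to 0.68 without single arrays. For Col4a5 and Col4a6, r was 0.67 within day 7 (adjusted p = 0.0804, exact permutation test), and for Col6a1 and Col6a2 0.64 over deviations (adjusted p = 0.20, permutation test). Without single arrays, r was 0.36 to 0.52 for Col8a1 and Col8a2, and 0.065 to 0.42 for Col11a1 and Col11a2. The cause of these differences was not tested. The alternatives for the correlations, and the counts at an unadjusted p and the medians under each alternative, were chosen after seeing the data.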
